A study of Mus musculus with 12 samples.

Results

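The lungs of 12-month-old mice were compared with those of 6-month-old mice over all genes, using the 6 libraries of these ages among the 12 of the series. The animals were male wild-type C57Bl/6J mice, an inbred laboratory strain, with 3 mice at 6 months and 3 at 12 months. They had no treatment, and each library was poly(A) RNA of 1 minced lung, so every cell type of the organ contributed. In mice, 6 months is young adulthood and 12 months is middle age. The remaining libraries came from mice of 3 and 24 months, 3 of each, and those of 3 months entered the test to estimate the spread between mice.

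The adult lung holds thin alveolar type 1 cells, through which gas passes, and alveolar type 2 cells, which make surfactant. Airways are lined by club, ciliated and basal cells, and a dense capillary bed, fibroblasts, macrophages and lymphocytes fill the walls. Plasma cells are the end stage of the B lineage and devote most of their protein synthesis to antibody chains. Many transcripts of lung cells also follow a daily rhythm, set by a loop of transcription factors that repress their own genes.

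The 6-month libraries held 15.3 to 19.6 M gene reads, and the 12-month libraries 16.1 to 21.2 M. Surfactant protein C (Sftpc) was at 17900, 20300 and 20200 CPM at 6 months and 27100, 29500 and 28400 at 12 months, so the label of lung was met in every library. The 3 libraries of 6 months were alike, with a correlation of log2 CPM of 0.987 to 0.988. At 12 months mouse 1 and 2 correlated at 0.99, while the correlation of mouse 3 with them went down to 0.962. Mouse 3 also lay apart on the second principal component (53.1, against -23.1 and -32.1) and had 3.12% mitochondrially encoded reads, against 1.84 to 2.14% in the other 5 libraries. The GC content of genes, weighted by reads, was 50.61 to 51.07% at 6 months and 51.7, 51.82 and 50.73% at 12 months. The read-weighted median gene length was 3029 to 3066 bases at 6 months and 2575 to 2686 bases at 12 months, so the 2 ages did not overlap in that measure.

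Below, CPM are reads scaled to the size of each library with TMM factors, listed in the order mouse 1, 2, 3. Fold changes are log2 values of 12 against 6 months ± SE from the edgeR quasi-likelihood test, with p adjusted over all genes, and a gene was called at an adjusted p under 0.05. Of 15908 genes tested, 1734 rose (10.9%) and 1442 fell (9.06%). Among the called genes 132 rose and 363 fell by more than a factor of 2. Without regard to the test, 3466 genes (21.8%) had all 3 mice of 12 months above all 3 of 6 months, and 2993 (18.8%) had them below. The median log2 fold change of all tested genes was -0.01.

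These counts rested on single mice. Without 6-month mouse 3 only 12 genes rose and 50 fell, and without 6-month mouse 1 the counts were 133 and 271. Without 6-month mouse 2, 755 rose and 866 fell, and without 12-month mouse 1 or 2 the counts were 1014 and 914, or 746 and 813. Without 12-month mouse 3 they grew to 3330 (20.6%) and 3449 (21.3%). With all 12 libraries in the fit, 77 genes rose (0.480%) and 248 fell (1.55%). Counts of gene groups are therefore also given with each mouse left out, in full for the larger groups and as a range over these 6 fits for the others. An adjusted p given without a mouse belongs to a gene that was then no longer called, unless stated otherwise. Called genes named with a fold change alone were each lost in at least 1 of the 6 fits. Before adjustment, 5890 of 15908 genes had an edgeR p under 0.05 as fitted, and 4133 of 16127 without 6-month mouse 3.

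Genes of antibody-secreting cells rose in part, with 8 of 18 tested plasma cell and immunoglobulin constant genes called higher and none lower. Igkc (chr6:70726435-70726757), the constant region of the kappa light chain, was at 265, 106 and 117 CPM at 6 months and 501, 656 and 823 at 12 months (log2 2.02 ± 0.32, adjusted p = 0.0057). Ighm (chr12:113418950-113422730), the constant region of IgM, was at 455, 212 and 145 CPM at 6 months and 830, 1160 and 998 at 12 months (log2 1.88 ± 0.32, adjusted p = 0.0087). Every 12-month mouse was above every 6-month mouse for both, and among the 6-month mice the first had the highest values.

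Igj, the J chain that links units of IgM and IgA for secretion, was at 66.4, 29.3 and 33.3 CPM at 6 months and 107, 116 and 215 at 12 months (log2 1.76 ± 0.34, adjusted p = 0.0098). Igha, the constant region of IgA, was at 57.1, 58.3 and 36.5 CPM at 6 months and 166, 92.4 and 82.0 at 12 months (log2 1.17 ± 0.27, adjusted p = 0.016), with 12-month mouse 1 the highest. Mzb1, a chaperone of antibody assembly, and Derl3, which exports misfolded proteins from the endoplasmic reticulum, had log2 fold changes of 0.89 and 0.96. Txndc5, a disulfide isomerase, and Sdc1, a surface proteoglycan listed here as a plasma cell marker, had 0.56 and 0.62. These were the other called members. The IgG genes were not called. Ighg2c was at 60.7, 1.96 and 44.1 CPM at 6 months and 84.7, 100 and 160 at 12 months (log2 1.69 ± 1.24, adjusted p = 0.357), with 6-month mouse 2 near 2 CPM, and Ighg1 at 12.1, 1.67 and 4.88 CPM at 6 months and 12.4, 13.1 and 10.6 at 12 months (log2 0.96 ± 0.47, adjusted p = 0.150), with overlapping ages. Ighg genes are close paralogs, and the sources used here do not say how shared reads were assigned.

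Transcription factors of the plasma cell were not called: Xbp1 had log2 0.31 ± 0.19, adjusted p = 0.258, Irf4 log2 -0.11 ± 0.24, adjusted p = 0.771 and Prdm1 log2 -0.35 ± 0.18, adjusted p = 0.170. The median log2 fold change of the plasma cell list was 0.90, and its summed level was 1810, 1390 and 1290 CPM at 6 months and 3050, 3640 and 3460 CPM at 12 months. The called count was 6, 6 and 1 without 6-month mouse 1, 2 and 3, and 5, 5 and 10 without 12-month mouse 1, 2 and 3. Igkc had an adjusted p = 0.051 without 6-month mouse 3. Igj had an adjusted p = 0.067 without 6-month mouse 3. Igha had an adjusted p = 0.052 and 0.092 without 6-month mouse 1 and 3. Ighm was called without any 1 mouse. In bulk tissue, more cells of a type and more RNA per cell cannot be told apart, and the cell type that gave a transcript is not seen.

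Variable (V) segments, which encode most of the antigen-binding end of each antibody chain, also rose in part. Of 53 heavy chain V segments tested, 22 rose and none fell, with 50 above 0 and a median log2 fold change of 1.36. Of 59 kappa V segments, 23 rose and none fell, with 55 above 0 and a median of 1.5. The heavy chain count was 19, 12 and 2 without 6-month mouse 1, 2 and 3, and 20, 19 and 25 without 12-month mouse 1, 2 and 3. For kappa it was 19, 14 and 4 without 6-month mouse 1, 2 and 3, and 24, 23 and 21 without 12-month mouse 1, 2 and 3. As an example chosen after its values were seen, Igkv4-53 was at 0.622, 0.806 and 0.603 CPM at 6 months and 3.81, 3.21 and 4.19 at 12 months (log2 2.45 ± 0.29, adjusted p = 0.0032), with no overlap. V segments resemble each other closely, so single segments are uncertain.

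**Figure D1:**
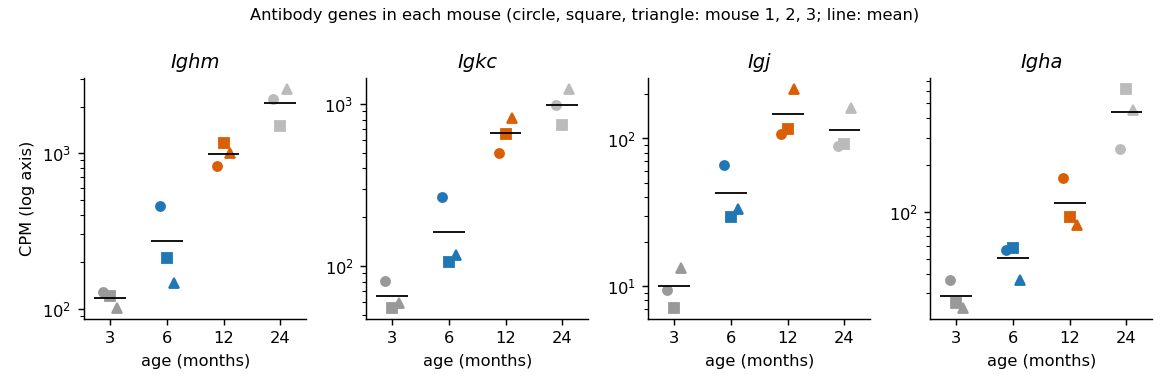
Level of Ighm, Igkc, Igj and Igha in CPM (log axis) in each mouse at 3, 6, 12 and 24 months. Circles, squares and triangles are mouse 1, 2 and 3, and lines are means. The 12-month mice sit above the 6-month mice in all 4 panels. The 24-month libraries, shown for context, were not used in the test. They were scaled separately, so their levels cannot be compared directly with those of the other ages.

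No B cell gene was called. Of 17 tested members none was called in either direction, with a median of 0.15, and their summed level was 407, 311 and 177 CPM at 6 months and 351, 295 and 369 CPM at 12 months. Pax5, the factor that keeps B cell identity, was at 6.72, 4.26 and 2.61 CPM at 6 months and 7.92, 4.72 and 10.7 at 12 months (log2 0.79 ± 0.37, adjusted p = 0.143), and Cr2, a complement receptor of mature B cells, at 9.77, 6.56 and 4.07 CPM at 6 months and 4.06, 3.08 and 4.72 at 12 months (log2 -0.78 ± 0.32, adjusted p = 0.097). Both overlapped between the ages. Leaving out 1 mouse at a time gave 0 to 1 higher and 0 to 1 lower, the calls being made without 12-month mouse 3. The difference between the plasma cell and B cell lists was not tested.

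Of 21 T cell genes, 2 rose and 1 fell. Thy1, a surface glycoprotein of T cells and some stromal cells, was at 26.5, 24.9 and 21.5 CPM at 6 months and 39.4, 39.9 and 30.9 at 12 months (log2 0.60 ± 0.17, adjusted p = 0.028). Zap70, a kinase of T cell receptor signalling, had log2 0.50 ± 0.17, adjusted p = 0.049, and Lef1, a factor of naive T cells, was at 8.96, 10.6 and 8.45 CPM at 6 months and 6.13, 5.22 and 4.98 at 12 months (log2 -0.77 ± 0.21, adjusted p = 0.025). The T cell count of higher members was 0, 0 and 0 without 6-month mouse 1, 2 and 3, and 0, 2 and 3 without 12-month mouse 1, 2 and 3, and of lower members 0, 0 and 0 without 6-month mouse 1, 2 and 3, and 1, 0 and 3 without 12-month mouse 1, 2 and 3. The shares of 2 and 1 of 21 lie below the shares of all genes called higher and lower.

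Some genes of monocytes and interstitial macrophages rose. Of 19 tested, 7 rose and 1 fell, with a median of 0.28. Fcgr4, an activating Fc receptor that binds IgG, was at 7.78, 7.77 and 7.94 CPM at 6 months and 12.7, 15.3 and 18.1 at 12 months (log2 0.97 ± 0.18, adjusted p = 0.0094). C1qa, a chain of the first complement component, was at 44.4, 50.3 and 38.3 CPM at 6 months and 66.1, 73.1 and 76.8 at 12 months (log2 0.70 ± 0.16, adjusted p = 0.016), and its partners C1qb and C1qc had log2 fold changes of 0.60 and 0.49 and were also called. All 3 mice of 12 months exceeded those of 6 months for Fcgr4 and C1qa. Of 18 alveolar macrophage genes only 1 rose and none fell, below the shares of all genes (10.9% and 9.06%). Leaving out 1 mouse gave 0 to 1 higher and 0 to 3 lower in that list.

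Ly6c2, a marker of classical monocytes, was at 17.1, 13.9 and 10.7 CPM at 6 months and 22.2, 20.3 and 28.6 at 12 months (log2 0.77 ± 0.20, adjusted p = 0.022). Cd163, a haemoglobin scavenger receptor of resident macrophages, fell from 13.2 CPM or more in each 6-month mouse to 8.97 CPM or less (log2 -0.82 ± 0.21, adjusted p = 0.020). Csf1r, Cx3cr1 and Ccr2, receptors that define the lineage, were not called (0.24, 0.28 and 0.04, adjusted p = 0.407, 0.428 and 0.938). The count of higher members was 2, 2 and 0 without 6-month mouse 1, 2 and 3, and 5, 3 and 9 without 12-month mouse 1, 2 and 3. Without 12-month mouse 3, 2 members were called lower. Fcgr4 had an adjusted p = 0.063 without 6-month mouse 3. C1qa had an adjusted p = 0.064 and 0.097 without 6-month mouse 1 and 3. Ly6c2 had an adjusted p = 0.068 and 0.114 without 6-month mouse 2 and 3. Cd163 had an adjusted p = 0.066, 0.056 and 0.088 without 6-month mouse 1, 2 and 3 and 0.056 and 0.057 without 12-month mouse 1 and 2.

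MHC class II genes, which present peptides to helper T cells, rose in part, with 5 of 11 called higher, none lower and a median of 0.58. H2-Aa and H2-Ab1, the chains of I-A, were at 515, 572 and 459 CPM at 6 months and 759, 807 and 776 at 12 months (log2 0.60 ± 0.15, adjusted p = 0.019), and at 366, 444 and 307 CPM at 6 months and 584, 590 and 650 at 12 months (log2 0.71 ± 0.17, adjusted p = 0.018). H2-DMa and H2-DMb1, which load the peptides, had 0.70 and 0.56. Ciita, the master activator of the class, had log2 0.02 ± 0.29, adjusted p = 0.969, and Cd74, the invariant chain, log2 0.36 ± 0.18, adjusted p = 0.161. The count was 0, 3 and 0 without 6-month mouse 1, 2 and 3, and 3, 2 and 5 without 12-month mouse 1, 2 and 3. H2-Aa had an adjusted p = 0.072 and 0.110 without 6-month mouse 1 and 3 and 0.055 without 12-month mouse 2. H2-Ab1 had an adjusted p = 0.070 and 0.106 without 6-month mouse 1 and 3.

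Among 27 chemokines and lymphoid organising genes, 6 rose and none fell, with a median of 0.34. Ccl8, a monocyte attractant, was at 2.43, 2.94 and 1.71 CPM at 6 months and 5.59, 5.35 and 7.40 at 12 months (log2 1.38 ± 0.25, adjusted p = 0.0094). Ccl6, a chemokine of macrophages and neutrophils, was at 147, 208 and 176 CPM at 6 months and 239, 292 and 409 at 12 months (log2 0.82 ± 0.20, adjusted p = 0.017). Ccl19, which draws T cells and dendritic cells through CCR7, was low but higher in every 12-month mouse, at 0.871, 0.864 and 0.603 CPM at 6 months and 2.08, 2.52 and 1.77 at 12 months (log2 1.45 ± 0.37, adjusted p = 0.020). Cxcl9, an interferon-gamma target, was at 1.93, 1.73 and 0.704 CPM at 6 months and 3.61, 2.70 and 4.13 at 12 months (log2 1.27 ± 0.35, adjusted p = 0.025).

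Cxcl13, the B cell attractant of lymphoid follicles, was not called (log2 -0.18 ± 0.38, adjusted p = 0.751). The chemokine count was 1, 3 and 0 without 6-month mouse 1, 2 and 3, and 5, 3 and 6 without 12-month mouse 1, 2 and 3. Ccl8 had an adjusted p = 0.065 without 6-month mouse 3. Ccl6 had an adjusted p = 0.075 and 0.089 without 6-month mouse 1 and 3. Ccl19 had an adjusted p = 0.063, 0.052 and 0.105 without 6-month mouse 1, 2 and 3 and 0.060 without 12-month mouse 2. Cxcl9 had an adjusted p = 0.054, 0.053 and 0.107 without 6-month mouse 1, 2 and 3 and 0.058 without 12-month mouse 1. Of 25 interferon-stimulated genes 1 rose and 3 fell, against 10.9% and 9.06% of all genes, so the lower share was near that of all genes. With 1 mouse left out, 0 to 5 were higher and 0 to 5 lower. The 5 and 5 came without 12-month mouse 3, where 20.6% and 21.3% of all genes were called. Among the lower ones was Gbp3, a guanylate-binding protein (log2 -0.86 ± 0.20, adjusted p = 0.017, adjusted p = 0.068 and 0.067 without 6-month mouse 1 and 3).

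The single gene with the lowest fold change under the naming rule was Zfp366 (chr13:99184823-99247037), a zinc finger factor of dendritic cells. It was at 9.15, 15 and 14.8 CPM at 6 months and 2.18, 1.82 and 0.983 at 12 months (log2 -2.94 ± 0.57, adjusted p = 0.011). The ages did not overlap, which that rule required. Zbtb46, another factor of classical dendritic cells, also fell (log2 -0.76 ± 0.22, adjusted p = 0.029), while Ccl22, a chemokine of mature dendritic cells, rose (log2 0.83 ± 0.24, adjusted p = 0.031). Of 17 dendritic cell genes 1 rose and 2 fell, so the list as a whole had no common direction. Over all genes 10.9% rose and 9.06% fell, so the dendritic shares lay below and near those of all genes. With 1 mouse left out the dendritic counts were 0 to 7 higher and 0 to 2 lower, the 7 without 12-month mouse 3. Zfp366 had an adjusted p = 0.058 without 6-month mouse 3 and 0.068 and 0.063 without 12-month mouse 2 and 3. Zbtb46 had an adjusted p = 0.071, 0.058 and 0.124 without 6-month mouse 1, 2 and 3. Ccl22 had an adjusted p = 0.117 and 0.121 without 6-month mouse 1 and 3 and 0.053 and 0.117 without 12-month mouse 1 and 2.

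Noncoding RNA and splicing factor genes were among those that fell. Malat1, an abundant RNA kept in nuclear speckles, was at 946, 819 and 991 CPM at 6 months and 366, 353 and 388 at 12 months (log2 -1.32 ± 0.21, adjusted p = 0.0058). Snhg11, a small nucleolar RNA host gene, was at 58.7, 59.7 and 82.2 CPM at 6 months and 22.8, 17.2 and 12.9 at 12 months (log2 -1.92 ± 0.21, adjusted p = 0.0027). Meg3, an imprinted noncoding RNA, was at 12.4, 11.1 and 10.3 CPM at 6 months and 3.76, 5.22 and 2.10 at 12 months (log2 -1.61 ± 0.30, adjusted p = 0.0094, adjusted p = 0.054 without 6-month mouse 3). Of 377 lincRNA genes tested, 7 rose (1.86%) and 46 fell (12.2%), and of 256 antisense genes 1 rose (0.391%) and 23 fell (8.98%). Of 14635 protein-coding genes 1653 rose (11.3%) and 1322 fell (9.03%), so the share of antisense genes that fell was near that of all genes (9.06%). The lower lincRNA count was 13, 39 and 3 without 6-month mouse 1, 2 and 3, and 34, 36 and 63 without 12-month mouse 1, 2 and 3. The lower antisense count was 4, 11 and 1 without 6-month mouse 1, 2 and 3, and 10, 14 and 27 without 12-month mouse 1, 2 and 3. Without strand information, which the sources used here do not give, an antisense gene and its partner cannot be told apart.

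Of 26 splicing factor genes, 14 fell and none rose, with a median of -0.64. Hnrnph1, which binds G-rich splice elements, was at 371, 321 and 393 CPM at 6 months and 150, 132 and 208 at 12 months (log2 -1.15 ± 0.17, adjusted p = 0.0057). Ddx5, an RNA helicase, was at 1250, 1120 and 1340 CPM at 6 months and 658, 582 and 723 at 12 months (log2 -0.92 ± 0.15, adjusted p = 0.0058). Srsf11 and Srsf1, serine- and arginine-rich splicing proteins, were at 163, 132 and 167 CPM at 6 months and 74.4, 66.3 and 95.3 at 12 months (log2 -0.97 ± 0.17, adjusted p = 0.0083), and at 163, 154 and 187 CPM at 6 months and 99.0, 97.0 and 97.3 at 12 months (log2 -0.78 ± 0.14, adjusted p = 0.0087). The ages did not overlap for any of the 4.

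Both CDC-like kinases of the list, Clk1 (-1.05) and Clk4 (-0.89), fell as well, whereas U2af1, U2af2 and Ptbp1 were above 0 and not called (0.26, 0.28 and 0.36, adjusted p = 0.239, 0.144 and 0.171). The count of lower splicing genes was 6, 14 and 1 without 6-month mouse 1, 2 and 3, and 12, 14 and 20 without 12-month mouse 1, 2 and 3. Without 12-month mouse 3, 2 splicing genes were also called higher. Ddx5 had an adjusted p = 0.051 without 6-month mouse 3. Srsf11 had an adjusted p = 0.058 without 6-month mouse 3. Srsf1 had an adjusted p = 0.063 without 6-month mouse 3. Hnrnph1 was called without any 1 mouse.

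Under all 16 alternative settings 44 genes fell and 9 rose. They were chosen by their values, so the set is a description. The lower side held Pnisr and Luc7l2, nuclear proteins of splicing, Ep300, a histone acetyltransferase, Rcor1, a corepressor, and Ogt, which adds O-GlcNAc to nuclear proteins. Pnisr was at 148, 123 and 158 CPM at 6 months and 53.6, 39.5 and 62.8 at 12 months (log2 -1.46 ± 0.19, adjusted p = 0.0045) and Ogt at 179, 147 and 183 CPM at 6 months and 82.6, 73.7 and 85.0 at 12 months (log2 -1.08 ± 0.15, adjusted p = 0.0048). The set also held Col8a1, Plagl1, Nr4a2 and Snai2. Snai2, a repressor of epithelial genes, was at 9.40, 7.31 and 10.3 CPM at 6 months and 3.07, 2.64 and 2.55 at 12 months (log2 -1.70 ± 0.23, adjusted p = 0.0047).

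The higher side of that set held Ighm, 5 V segments (Igkv4-53, Igkv12-46, Igkv8-28, Ighv14-4 and Igkv3-1), the numbered gene model Gm26917, and the 2 coding genes Rhov and Grm4. Rhov, an atypical small GTPase, was at 2.18, 1.5 and 1.76 CPM at 6 months and 4.85, 5.85 and 5.57 at 12 months (log2 1.58 ± 0.24, adjusted p = 0.0052). Grm4, a metabotropic glutamate receptor, was at 3.80, 6.22 and 5.28 CPM at 6 months and 13.7, 17.0 and 11.7 at 12 months (log2 1.47 ± 0.22, adjusted p = 0.0057). The 44 lower genes had a median length of 5033 bases and a median GC content of 47.1%, against 2992 bases and 50.3% over all genes tested.

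Fold changes varied with gene length and GC content over the whole table. In the decile of genes with the lowest GC content the median log2 fold change was -0.34, and in the highest decile 0.36. In the decile with the shortest genes, up to 1109 bases, the median was 0.43 and 26.8% were called higher. In the decile with the longest, from 6282 bases, it was -0.44 and 24.7% were called lower. A joint smooth on both properties gave 30.5% of the variance of the fold changes over 15816 genes. The labels give no batch, sequencing date or RNA integrity value for single libraries.

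**Figure D2:**
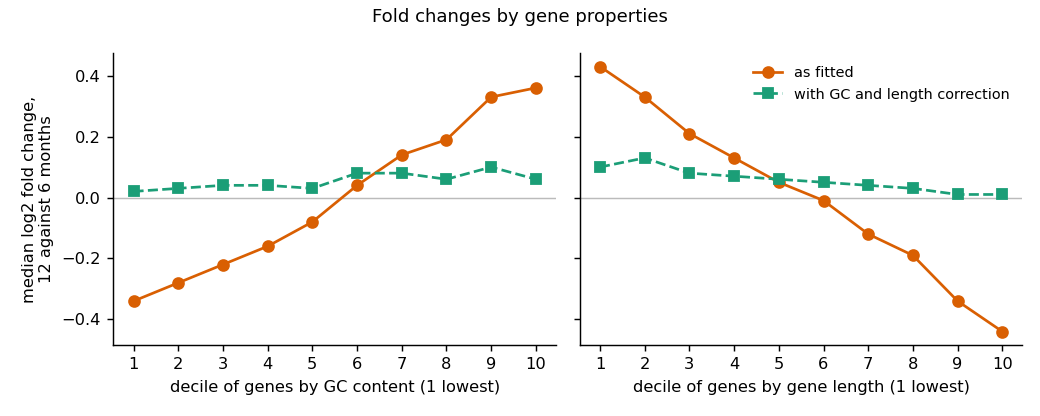
Median log2 fold change of 12 against 6 months in deciles of the tested genes by GC content (left) and gene length (right). Orange circles are the values as fitted and green squares those with the correction for both properties. As fitted, the medians climb from -0.34 to 0.36 with GC content and drop from 0.43 to -0.44 with length, and with the correction they lie between 0.01 and 0.13.

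Taking this smooth out of each library as an offset left 1492 genes higher (9.43%) and 1036 lower (6.55%), and kept 44.2% of the calls made without it. Values from that fit are called corrected below. Zfp366 had a corrected log2 fold change of -2.92 ± 0.68, adjusted p = 0.026, Snhg11 -1.52 ± 0.17, adjusted p = 0.0022 and Malat1 -0.76 ± 0.19, adjusted p = 0.022. Igkc had 1.24 ± 0.20, adjusted p = 0.0050, Ighm 1.72 ± 0.35, adjusted p = 0.015, Igj 1.84 ± 0.27, adjusted p = 0.0050 and Igha 0.89 ± 0.25, adjusted p = 0.036, so the 4 antibody genes were called with the correction. With the correction and without 12-month mouse 3, Ighm (adjusted p = 0.073), Igha (adjusted p = 0.082) and Zfp366 (adjusted p = 0.108) were not called. Mzb1 and Derl3 lost their calls with the correction (0.55 and 0.55, adjusted p = 0.092 and 0.096). The plasma cell list had 6 of 18 members higher (median 0.54), the heavy chain V segments 8 of 51 (median 0.63) and the kappa V segments 13 of 58 (median 0.69).

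Of the 26 splicing genes 10 were lower and 1 higher with the correction, with a median of -0.19. Hnrnph1 had -0.68 ± 0.10, adjusted p = 0.0039 and Srsf11 -0.77 ± 0.11, adjusted p = 0.0031, while Srsf1 was no longer called (-0.28 ± 0.15, adjusted p = 0.215). Of the lincRNA genes 40 of 353 were lower (11.3%) and of the antisense genes 30 of 247 (12.1%). Over all genes 6.55% were lower with the correction, so both shares lay above it, unlike the antisense share as fitted. Class II genes had 2 of 11 higher (median 0.33), with H2-Aa at 0.41 ± 0.11, adjusted p = 0.025 H2-Ab1 at 0.33 ± 0.13, adjusted p = 0.097 and H2-DMa at 0.39 ± 0.15, adjusted p = 0.083. Monocyte and interstitial macrophage genes had 5 of 19 higher and 1 lower. Fcgr4 was at 0.83 ± 0.13, adjusted p = 0.0046, C1qa at 0.29 ± 0.12, adjusted p = 0.114 and Cd163 at -0.47 ± 0.16, adjusted p = 0.064. Chemokines had 7 of 27 higher, including Ccl8 (0.86 ± 0.22, adjusted p = 0.023) and Cxcl9 (1.52 ± 0.33, adjusted p = 0.012). C1qb and C1qc lost their calls (0.22 and 0.12, adjusted p = 0.287 and 0.390), as did Zbtb46 (-0.47 ± 0.16, adjusted p = 0.059). T cell genes had 1 of 21 higher and none lower, and none of Thy1 (0.32 ± 0.11, adjusted p = 0.067), Zap70 (0.15 ± 0.15, adjusted p = 0.497) and Lef1 (-0.60 ± 0.19, adjusted p = 0.051) was called.

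Most cytosolic ribosomal protein genes, which are short, rose as fitted. Of 81 cytosolic ribosomal protein genes 70 rose and none fell. All 81 had a fold change above 0, from 0.13 to 0.97 with a median of 0.64, and 79 did not overlap between the ages. With the correction 38 of 81 rose and none fell, with a median of 0.35, and the median length of these genes was 935 bases. The count was 1, 26 and 0 without 6-month mouse 1, 2 and 3, and 59, 49 and 70 without 12-month mouse 1, 2 and 3, while the median stayed between 0.56 and 0.70 in these fits. Of 76 mitochondrial ribosomal protein genes 30 rose and none fell (median 0.45), and 20 of 75 with the correction (median 0.31). Their count was 1, 7 and 0 without 6-month mouse 1, 2 and 3, and 19, 12 and 49 without 12-month mouse 1, 2 and 3. Without 12-month mouse 3, 2 of them were also called lower.

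Nuclear genes of the respiratory chain, which makes most cellular ATP, rose in 15 of 27 cases with none lower and a median of 0.50. Uqcrq, a small subunit of complex III, was at 50.1, 46.6 and 45.4 CPM at 6 months and 76.9, 88.1 and 97.9 at 12 months (log2 0.89 ± 0.16, adjusted p = 0.0094). Uqcrq had 0.75 ± 0.14, adjusted p = 0.0082 with the correction. Cox4i1, a subunit of cytochrome c oxidase, was at 163, 179 and 154 CPM at 6 months and 263, 273 and 302 at 12 months (log2 0.76 ± 0.17, adjusted p = 0.015). Cox4i1 had 0.40 ± 0.12, adjusted p = 0.044 with the correction. Cyc1, cytochrome c1, was at 76.0, 83.1 and 66.8 CPM at 6 months and 107, 123 and 124 at 12 months (log2 0.64 ± 0.14, adjusted p = 0.015) and was not called with the correction (0.22 ± 0.10, adjusted p = 0.148). No 12-month mouse overlapped the 6-month mice for these 3 genes.

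With the correction 11 of 27 respiratory chain genes rose, with a median of 0.26. The count was 1, 4 and 0 without 6-month mouse 1, 2 and 3, and 10, 6 and 19 without 12-month mouse 1, 2 and 3. Without 12-month mouse 3, 1 of these nuclear genes was also called lower. Uqcrq had an adjusted p = 0.066 without 6-month mouse 3. Cox4i1 had an adjusted p = 0.062 and 0.089 without 6-month mouse 1 and 3. Cyc1 had an adjusted p = 0.061 and 0.092 without 6-month mouse 1 and 3. Mitochondrially encoded subunits of the same complexes were called in 1 of 12 cases (median 0.31) and in 7 of 12 with the correction (median 0.41). mt-Co1, a catalytic subunit of cytochrome c oxidase, was at 8080, 8330 and 7170 CPM at 6 months and 8700, 8930 and 14200 at 12 months (log2 0.43 ± 0.19, adjusted p = 0.119), with 12-month mouse 3 far above the other 5, and it was called with the correction (0.53 ± 0.12, adjusted p = 0.015). It was also called with the correction and without 12-month mouse 3 (adjusted p = 0.012).

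The proteasome, which degrades ubiquitin-tagged proteins, rose in 10 of 23 constitutive subunit genes with none lower, and all 23 were above 0 (median 0.45). Psmb3, Psmb6 and Psmb5 belong to the catalytic rings and Psmc4 to the base that unfolds substrates. Psmb3 was at 90.1, 96.9 and 88.6 CPM at 6 months and 138, 149 and 167 at 12 months (log2 0.72 ± 0.16, adjusted p = 0.013, corrected 0.60 ± 0.13, adjusted p = 0.015), and Psmc4 at 63.7, 67.4 and 69.9 CPM at 6 months and 105, 113 and 105 at 12 months (log2 0.69 ± 0.16, adjusted p = 0.015). Psmc4 had 0.51 ± 0.12, adjusted p = 0.019 with the correction. Psmb6 and Psmb5 had 0.69 and 0.67, and Psmb5 was not called with the correction (0.29 ± 0.10, adjusted p = 0.060). With the correction 9 rose (median 0.29). The count was 0, 2 and 0 without 6-month mouse 1, 2 and 3, and 7, 3 and 13 without 12-month mouse 1, 2 and 3. Psmb3 had an adjusted p = 0.059 and 0.081 without 6-month mouse 1 and 3. Psmc4 had an adjusted p = 0.066 and 0.080 without 6-month mouse 1 and 3.

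**Figure D3:**
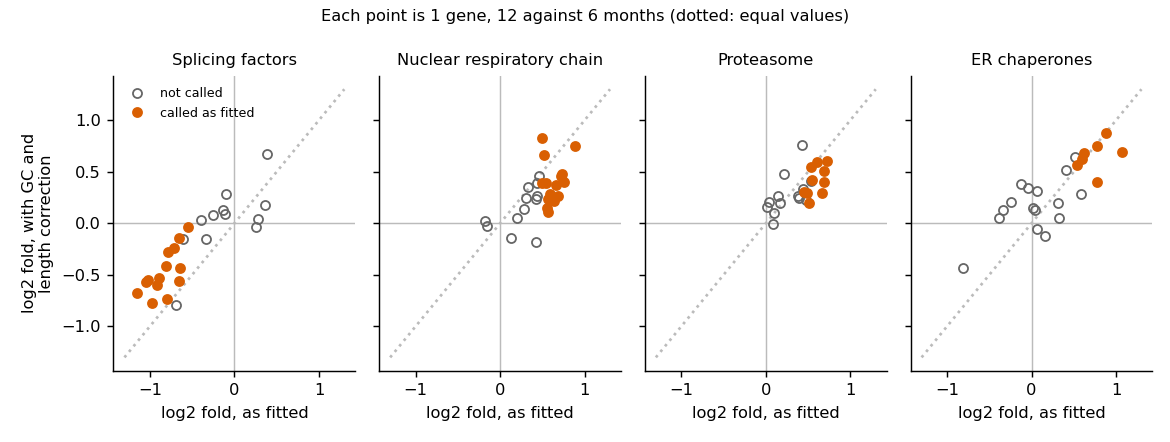
Each point is 1 gene of the splicing, nuclear respiratory chain, proteasome or endoplasmic reticulum chaperone list. The x axis is the log2 fold change of 12 against 6 months as fitted, and the y axis the value with the correction for GC content and length. Filled points were called as fitted, and the dotted line marks equal values. Splicing genes move up toward 0 with the correction (median -0.64 to -0.19), while the chaperone median is 0.31 on both axes.

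Chaperones of the endoplasmic reticulum, where secreted proteins fold, rose in 7 of 23 genes with none lower and a median of 0.31. With the correction 10 rose and the median was 0.31, so this list did not shrink with it. Sdf2l1, a cofactor of the chaperone BiP, was at 15.9, 16.5 and 16.8 CPM at 6 months and 39.2, 37.1 and 27.4 at 12 months (log2 1.07 ± 0.17, adjusted p = 0.0057). Sdf2l1 had 0.69 ± 0.11, adjusted p = 0.0051 with the correction. Manf, a secreted protein induced by stress of the compartment, was at 64.5, 80.7 and 83.1 CPM at 6 months and 142, 145 and 133 at 12 months (log2 0.88 ± 0.15, adjusted p = 0.0087). Manf had 0.88 ± 0.12, adjusted p = 0.0031 with the correction. Calr, the calcium-binding lectin chaperone calreticulin, was at 566, 629 and 548 CPM at 6 months and 1010, 1010 and 962 at 12 months (log2 0.77 ± 0.14, adjusted p = 0.0089). Calr had 0.75 ± 0.11, adjusted p = 0.0031 with the correction.

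Pdia4 and Pdia6, disulfide isomerases, had 0.62 and 0.60. Hspa5, which encodes BiP, had log2 0.41 ± 0.16, adjusted p = 0.077, and Hsp90b1, which encodes GRP94, log2 0.06 ± 0.24, adjusted p = 0.881, so neither was called. The sensors Ern1 and Atf6 had -0.81 and -0.12 (adjusted p = 0.054 and 0.601). The count was 3, 5 and 1 without 6-month mouse 1, 2 and 3, and 6, 6 and 10 without 12-month mouse 1, 2 and 3. Without 12-month mouse 2 and 3, 1 and 4 members of this list were also called lower. Manf had an adjusted p = 0.051 without 6-month mouse 3. Calr had an adjusted p = 0.066 without 6-month mouse 3. Sdf2l1 was called without any 1 mouse.

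Many chaperone genes of this compartment carry an endoplasmic reticulum stress element, to which NF-Y and ATF6 bind. The motif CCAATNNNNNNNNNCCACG was sought on both strands in the 250 bases before each gene start, in RefSeq promoters of build GRCm38.p6. It was found in 37 of 32851 promoters (0.113%), or in 35 of 27025 genes with a promoter (0.13%). Of the 20 chaperone-list genes with a promoter 7 held it (Hspa5, Hsp90b1, Calr, Canx, Pdia6, Dnajc3 and Creld2). Among the 6 called genes with a promoter 2 held it, so most called members lacked these letters in the window, and 5 of the 7 genes with it were not called. The promoters of the 2 called genes are shown on the strand of the gene, 5′ to 3′, with the fixed letters of the motif in capitals. In Calr (chr8:84846932-84847181, minus strand) the match lies on the opposite strand and starts 162 bases before the gene, and in Pdia6 (chr12:17266339-17266588, plus strand) it starts 98 bases before it.
Calr: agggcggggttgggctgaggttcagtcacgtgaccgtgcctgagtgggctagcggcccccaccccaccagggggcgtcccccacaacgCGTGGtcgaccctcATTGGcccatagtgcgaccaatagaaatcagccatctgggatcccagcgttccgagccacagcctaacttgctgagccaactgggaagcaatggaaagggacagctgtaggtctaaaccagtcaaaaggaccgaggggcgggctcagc
Pdia6: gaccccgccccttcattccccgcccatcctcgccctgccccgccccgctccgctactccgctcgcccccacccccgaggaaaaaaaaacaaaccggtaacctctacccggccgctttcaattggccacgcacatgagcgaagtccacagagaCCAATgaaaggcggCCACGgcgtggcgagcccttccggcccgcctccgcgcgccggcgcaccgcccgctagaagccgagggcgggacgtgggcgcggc

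Of 19 genes of heat shock proteins and their factors, from the cytosol and mitochondria, 6 rose and none fell (median 0.14), and with the correction 8 rose and 1 fell (median 0.22). Hspb1, a small heat shock protein, was at 106, 136 and 121 CPM at 6 months and 278, 248 and 213 at 12 months (log2 1.03 ± 0.16, adjusted p = 0.0059). Hspb1 had 0.60 ± 0.12, adjusted p = 0.0087 with the correction. Stip1, which couples HSP70 to HSP90, was at 95.6, 115 and 121 CPM at 6 months and 191, 193 and 190 at 12 months (log2 0.79 ± 0.14, adjusted p = 0.0094). Stip1 had 0.73 ± 0.14, adjusted p = 0.0076 with the correction. The strongly inducible Hspa1b had log2 -1.17 ± 0.39, adjusted p = 0.052 and Dnajb1 log2 -0.65 ± 0.23, adjusted p = 0.057, both below 0 and not called. Hspa1a and Hspa1b are near-identical copies, so single values are uncertain. The heat shock count was 1, 3 and 0 without 6-month mouse 1, 2 and 3, and 3, 3 and 8 without 12-month mouse 1, 2 and 3. Lower members numbered 1, 0 and 0 without 6-month mouse 1, 2 and 3, and 0, 2 and 3 without 12-month mouse 1, 2 and 3. Hspb1 had an adjusted p = 0.051 without 6-month mouse 3. Stip1 had an adjusted p = 0.050 and 0.054 without 6-month mouse 1 and 3.

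Some enzymes of glycolysis rose, with 9 of 24 genes of the glycolysis and hypoxia list higher and 3 lower. With the correction the counts were also 9 and 3. Pfkl, the liver-type phosphofructokinase, was at 67.6, 82.5 and 69.2 CPM at 6 months and 117, 124 and 123 at 12 months (log2 0.73 ± 0.14, adjusted p = 0.0095). Pfkl had 0.55 ± 0.11, adjusted p = 0.0093 with the correction. Tpi1, triosephosphate isomerase, was at 147, 162 and 140 CPM at 6 months and 228, 263 and 264 at 12 months (log2 0.75 ± 0.15, adjusted p = 0.011). Tpi1 had 0.53 ± 0.12, adjusted p = 0.016 with the correction. Eno1 and Aldoa, further enzymes of the path, had 0.67 and 0.67 (corrected 0.45 and 0.30).

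The 3 lower members were Vegfa, the main vessel growth factor of alveolar epithelium (-0.94), Hk2, an inducible hexokinase (-0.80), and Pfkfb3, an activator of glycolytic flux (-0.71). Car9 and Adm, common hypoxia targets, were not called (-0.11 and -0.36, adjusted p = 0.826 and 0.391). The higher count was 0, 7 and 0 without 6-month mouse 1, 2 and 3, and 7, 5 and 13 without 12-month mouse 1, 2 and 3. Lower members numbered 0, 1 and 0 without 6-month mouse 1, 2 and 3, and 2, 3 and 4 without 12-month mouse 1, 2 and 3. Pfkl had an adjusted p = 0.052 and 0.068 without 6-month mouse 1 and 3. Tpi1 had an adjusted p = 0.052 and 0.076 without 6-month mouse 1 and 3.

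Cholesterol synthesis enzymes rose in 6 of 20 cases with none lower (median 0.23), and in 9 of 20 with the correction (median 0.32). Mvk, mevalonate kinase, was at 23.1, 25.8 and 22.8 CPM at 6 months and 37.3, 39.1 and 38.8 at 12 months (log2 0.68 ± 0.14, adjusted p = 0.012). Mvk had 0.35 ± 0.10, adjusted p = 0.033 with the correction. Dhcr7, a late reductase of the pathway, was at 19.7, 25.1 and 17.4 CPM at 6 months and 34.2, 34.2 and 30.3 at 12 months (log2 0.67 ± 0.16, adjusted p = 0.017). Dhcr7 had 0.64 ± 0.14, adjusted p = 0.012 with the correction. The count was 0, 5 and 0 without 6-month mouse 1, 2 and 3, and 6, 4 and 7 without 12-month mouse 1, 2 and 3. Without 12-month mouse 3, 5 cholesterol genes were also called lower. Mvk had an adjusted p = 0.059 and 0.080 without 6-month mouse 1 and 3. Dhcr7 had an adjusted p = 0.075 and 0.103 without 6-month mouse 1 and 3.

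Some genes of glutathione and xenobiotic metabolism rose. Of 25 glutathione and NRF2 target genes 9 rose and none fell (median 0.37), and 5 with the correction (median 0.26). Gpx2, an epithelial glutathione peroxidase, was at 31.7, 28.5 and 31.0 CPM at 6 months and 55.5, 70.1 and 48.7 at 12 months (log2 0.94 ± 0.17, adjusted p = 0.0090). Gpx2 had 0.70 ± 0.11, adjusted p = 0.0050 with the correction. Gstm2, a glutathione transferase, was at 189, 195 and 187 CPM at 6 months and 307, 318 and 288 at 12 months (log2 0.68 ± 0.14, adjusted p = 0.013). Gstm2 had 0.44 ± 0.09, adjusted p = 0.0100 with the correction. The classical NRF2 targets Nqo1 and Hmox1 were not called (0.46 and 0.34, adjusted p = 0.066 and 0.189), and Gclc, which starts glutathione synthesis, had log2 -0.50 ± 0.17, adjusted p = 0.059.

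Of 21 cytochrome P450 and xenobiotic genes 7 rose and none fell, and 5 with the correction. Aldh3a1, an aldehyde dehydrogenase, was at 39.6, 31.6 and 29.7 CPM at 6 months and 57.7, 63.0 and 57.9 at 12 months (log2 0.82 ± 0.16, adjusted p = 0.010). Aldh3a1 had 0.66 ± 0.13, adjusted p = 0.0092 with the correction. Cyp2a4, at 0.871, 0.691 and 0.804 CPM at 6 months and 1.34, 1.20 and 5.24 at 12 months (log2 1.69 ± 0.52, adjusted p = 0.038), rested on 12-month mouse 3 and is a near copy of Cyp2a5, so it is uncertain. With the correction it was not called (1.66 ± 0.57, adjusted p = 0.067). As fitted, Cyp2a4 had an adjusted p = 0.094, 0.114 and 0.126 without 6-month mouse 1, 2 and 3 and 0.151 without 12-month mouse 3. Aldh3a1 had an adjusted p = 0.074 without 6-month mouse 3. Gpx2 had an adjusted p = 0.058 without 6-month mouse 3. Gstm2 had an adjusted p = 0.056 and 0.080 without 6-month mouse 1 and 3. The glutathione count was 1, 5 and 0 without 6-month mouse 1, 2 and 3, and 7, 5 and 14 without 12-month mouse 1, 2 and 3. The P450 count was 1, 5 and 0 without 6-month mouse 1, 2 and 3, and 5, 2 and 8 without 12-month mouse 1, 2 and 3. Without 12-month mouse 3, 1 glutathione and 3 P450 genes were also called lower.

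Airway secretory genes rose in 5 of 18 cases with none lower (median 0.50). Scgb3a2, a secretoglobin of club cells, was at 1290, 1040 and 1110 CPM at 6 months and 1650, 2010 and 2570 at 12 months (log2 0.85 ± 0.21, adjusted p = 0.017). Scgb3a2 had 0.79 ± 0.14, adjusted p = 0.0060 with the correction. Hp, haptoglobin, was at 1410, 1250 and 1450 CPM at 6 months and 2070, 2630 and 2010 at 12 months (log2 0.71 ± 0.17, adjusted p = 0.016). Hp had 0.38 ± 0.12, adjusted p = 0.046 with the correction. Scgb1a1, the chief club cell product, was at 33000, 28800 and 37700 CPM at 6 months and 31000, 38100 and 36300 at 12 months (log2 0.08 ± 0.17, adjusted p = 0.753), with overlapping ages. It was called lower with the correction (-0.51 ± 0.14, adjusted p = 0.028), so its direction turned with the setting. The count was 0, 2 and 0 without 6-month mouse 1, 2 and 3, and 5, 1 and 6 without 12-month mouse 1, 2 and 3. Without 12-month mouse 3, 1 airway secretory gene was also called lower. Scgb3a2 had an adjusted p = 0.052, 0.067 and 0.092 without 6-month mouse 1, 2 and 3. Hp had an adjusted p = 0.060, 0.060 and 0.080 without 6-month mouse 1, 2 and 3 and 0.056 without 12-month mouse 2.

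Alveolar type 2 cell genes were largely uncalled, with 3 of 17 higher and 1 lower (median 0.22). Sftpc had log2 0.54 ± 0.15, adjusted p = 0.026 and was not called with the correction (0.19 ± 0.11, adjusted p = 0.257). Chia1, an acidic chitinase, was at 115, 145 and 153 CPM at 6 months and 260, 238 and 225 at 12 months (log2 0.81 ± 0.18, adjusted p = 0.013). Chia1 had 0.76 ± 0.14, adjusted p = 0.0079 with the correction. Scd1, a fatty acid desaturase, was at 1940, 1410 and 2100 CPM at 6 months and 1150, 1280 and 1190 at 12 months (log2 -0.59 ± 0.17, adjusted p = 0.031). Scd1 had -0.26 ± 0.14, adjusted p = 0.217 with the correction. Abca3, the surfactant lipid transporter, and Lamp3 were not called (-0.17 and -0.21, adjusted p = 0.631 and 0.613). The higher count was 0, 1 and 0 without 6-month mouse 1, 2 and 3, and 1, 1 and 5 without 12-month mouse 1, 2 and 3. Lower members numbered 0, 1 and 0 without 6-month mouse 1, 2 and 3, and 0, 0 and 3 without 12-month mouse 1, 2 and 3. Sftpc had an adjusted p = 0.106, 0.066 and 0.102 without 6-month mouse 1, 2 and 3 and 0.053 and 0.077 without 12-month mouse 1 and 2. Chia1 had an adjusted p = 0.063 and 0.066 without 6-month mouse 1 and 3. Scd1 had an adjusted p = 0.107 and 0.153 without 6-month mouse 1 and 3 and 0.088 and 0.060 without 12-month mouse 1 and 2.

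Alveolar type 1 cell genes moved both ways, with 4 of 17 higher and 5 lower. Igfbp2, a binding protein of insulin-like growth factors, was at 383, 351 and 349 CPM at 6 months and 675, 691 and 628 at 12 months (log2 0.88 ± 0.15, adjusted p = 0.0071). Igfbp2 had 0.46 ± 0.09, adjusted p = 0.0088 with the correction. Aqp5, the water channel of these cells, was at 392, 455 and 389 CPM at 6 months and 635, 713 and 728 at 12 months (log2 0.75 ± 0.15, adjusted p = 0.011). Aqp5 had 0.31 ± 0.10, adjusted p = 0.048 with the correction. Col4a3, a basement membrane collagen chain, was at 221, 170 and 226 CPM at 6 months and 83.4, 81.7 and 113 at 12 months (log2 -1.15 ± 0.24, adjusted p = 0.013, corrected -0.61 ± 0.18, adjusted p = 0.038), and Akap5, a kinase anchoring protein, at 343, 263 and 315 CPM at 6 months and 160, 127 and 189 at 12 months (log2 -0.95 ± 0.18, adjusted p = 0.0094). Akap5 had -0.47 ± 0.10, adjusted p = 0.013 with the correction.

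The ages did not overlap for these 4 alveolar type 1 genes, and the list had no common direction. Hopx and Pdpn, further markers, were not called (0.21 and 0.41, adjusted p = 0.342 and 0.053). The counts of higher members were 1, 3 and 0 without 6-month mouse 1, 2 and 3, and 2, 2 and 6 without 12-month mouse 1, 2 and 3, and those of lower members 1, 4 and 0 without 6-month mouse 1, 2 and 3, and 3, 3 and 8 without 12-month mouse 1, 2 and 3. Igfbp2 had an adjusted p = 0.058 without 6-month mouse 3. Aqp5 had an adjusted p = 0.053 and 0.074 without 6-month mouse 1 and 3. Col4a3 had an adjusted p = 0.051 and 0.074 without 6-month mouse 1 and 3. Akap5 had an adjusted p = 0.063 without 6-month mouse 3.

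Collagen chains were among the genes that fell. Of 26 genes of collagen chains and crosslinking 7 fell and 3 rose, and 4 fell and 3 rose with the correction (medians -0.17 and -0.12). The members that fell were the chains Col8a1, Col5a2, Col12a1, Col6a3 and Col3a1 and the enzymes Lox and Plod2, and those that rose were Serpinh1, Plod1 and Loxl1. Col5a2 and Col12a1 were not called with the correction (-0.47 and -0.10, adjusted p = 0.117 and 0.445). Col8a1, a short-chain network collagen, was at 8.84, 7.08 and 9.15 CPM at 6 months and 3.27, 2.39 and 3.01 at 12 months (log2 -1.53 ± 0.21, adjusted p = 0.0050). Col8a1 had -1.09 ± 0.17, adjusted p = 0.0048 with the correction. Col3a1, a fibrillar collagen of vessels and alveolar walls, was at 361, 320 and 276 CPM at 6 months and 244, 211 and 133 at 12 months (log2 -0.70 ± 0.21, adjusted p = 0.033), and was not called with the correction (-0.26 ± 0.22, adjusted p = 0.427). Serpinh1, the collagen chaperone, rose, at 318, 362 and 361 CPM at 6 months and 675, 614 and 465 at 12 months (log2 0.75 ± 0.16, adjusted p = 0.013). Serpinh1 had 0.44 ± 0.11, adjusted p = 0.022 with the correction.

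Col1a1, the main chain of type I collagen, was not called (log2 -0.32 ± 0.23, adjusted p = 0.326), nor was Eln, elastin, at 97.3, 95.6 and 114 CPM at 6 months and 141, 125 and 136 at 12 months (log2 0.39 ± 0.14, adjusted p = 0.058). The collagen counts of lower members were 1, 3 and 1 without 6-month mouse 1, 2 and 3, and 5, 4 and 7 without 12-month mouse 1, 2 and 3. Higher members numbered 0, 2 and 0 without 6-month mouse 1, 2 and 3, and 2, 3 and 3 without 12-month mouse 1, 2 and 3. Col3a1 had an adjusted p = 0.118, 0.071 and 0.089 without 6-month mouse 1, 2 and 3 and 0.057 without 12-month mouse 2. Serpinh1 had an adjusted p = 0.062 and 0.073 without 6-month mouse 1 and 3. Col8a1 was called without any 1 mouse. Of 24 lung fibroblast genes 3 fell and none rose (median -0.08), a share near that of all genes called lower. With 1 mouse left out the counts were 0 to 6 higher and 0 to 7 lower, the highest without 12-month mouse 3 and none without 6-month mouse 1 or 3. Pdgfra, a receptor of alveolar fibroblasts, was at 243, 258 and 289 CPM at 6 months and 174, 139 and 179 at 12 months (log2 -0.68 ± 0.15, adjusted p = 0.014). Pdgfra had -0.23 ± 0.13, adjusted p = 0.246 with the correction. As fitted, Pdgfra had an adjusted p = 0.050 and 0.086 without 6-month mouse 1 and 3. Of 22 endothelial genes 3 fell and none rose (median 0.11), again near the share of all genes, with 0 to 2 higher and 0 to 5 lower when 1 mouse was left out. Kdr, the main VEGF receptor, was at 362, 317 and 319 CPM at 6 months and 281, 219 and 190 at 12 months (log2 -0.53 ± 0.17, adjusted p = 0.041). Kdr had -0.12 ± 0.13, adjusted p = 0.524 with the correction. As fitted, Kdr had an adjusted p = 0.140, 0.066 and 0.114 without 6-month mouse 1, 2 and 3 and 0.109 without 12-month mouse 2.

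Of 19 smooth muscle and pericyte genes 4 rose and 1 fell, with 0 to 4 higher and 0 to 3 lower when 1 mouse was left out. Acta2, smooth muscle actin, was at 181, 169 and 140 CPM at 6 months and 278, 275 and 333 at 12 months (log2 0.85 ± 0.22, adjusted p = 0.020). Acta2 had 0.80 ± 0.20, adjusted p = 0.021 with the correction. Actg2 and Cnn1, further contractile genes, rose by 1.14 and 0.81. Myh11, the smooth muscle myosin heavy chain and a long gene, was at 190, 155 and 142 CPM at 6 months and 94.5, 87.4 and 95.4 at 12 months (log2 -0.81 ± 0.16, adjusted p = 0.011), and was not called with the correction (-0.44 ± 0.19, adjusted p = 0.132). Acta2 had an adjusted p = 0.060, 0.061 and 0.108 without 6-month mouse 1, 2 and 3. Myh11 had an adjusted p = 0.055 and 0.057 without 6-month mouse 1 and 3.

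Of 18 tested members of the list of imprinted and insulin-like growth factor genes 4 fell and 3 rose, with a median of 0.03 and 9 above 0, and with the correction 3 were lower and 1 higher. Plagl1, Peg3, Meg3 and Grb10 fell, and the binding proteins Igfbp2, Igfbp6 and Igfbp4 rose. Plagl1, a zinc finger regulator of the imprinted network, was at 38.9, 29.7 and 40.6 CPM at 6 months and 14.4, 11.1 and 14.7 at 12 months (log2 -1.44 ± 0.17, adjusted p = 0.0032, corrected -1.11 ± 0.21, adjusted p = 0.0082), and was called without any 1 mouse. Peg3, expressed from the paternal allele, was at 13.1, 8.81 and 9.95 CPM at 6 months and 3.61, 2.96 and 5.76 at 12 months (log2 -1.37 ± 0.26, adjusted p = 0.0094). Peg3 had -0.87 ± 0.19, adjusted p = 0.013 with the correction. As fitted, Peg3 had an adjusted p = 0.057 without 6-month mouse 3. Meg3 had a corrected value of -1.0 ± 0.19, adjusted p = 0.0086. Igf2 and H19 were not called (-0.02 and 0.35, adjusted p = 0.964 and 0.501). The lower count was 3, 5 and 1 without 6-month mouse 1, 2 and 3, and 4, 3 and 6 without 12-month mouse 1, 2 and 3. Higher members numbered 1, 2 and 0 without 6-month mouse 1, 2 and 3, and 2, 2 and 3 without 12-month mouse 1, 2 and 3.

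Circadian clock genes fell in 5 of 20 cases with none higher (median -0.15), and in 4 with the correction. Per3, a repressor of the loop, was at 80.2, 105 and 109 CPM at 6 months and 46.6, 63.8 and 20 at 12 months (log2 -1.17 ± 0.31, adjusted p = 0.023). Per3 had -0.90 ± 0.20, adjusted p = 0.015 with the correction. Per2, another repressor, was at 61.0, 134 and 117 CPM at 6 months and 44.8, 68.7 and 24.9 at 12 months (log2 -1.17 ± 0.37, adjusted p = 0.040, corrected -1.04 ± 0.30, adjusted p = 0.042), and overlapped, with 6-month mouse 1 within the range of the 12-month mice. Nr1d2, a repressor of Arntl, was at 147, 167 and 170 CPM at 6 months and 73.6, 69.3 and 130 at 12 months (log2 -0.83 ± 0.21, adjusted p = 0.020). Nr1d2 had -0.44 ± 0.12, adjusted p = 0.026 with the correction.

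The activator Arntl and the output factor Dbp, whose levels swing widely over the day, were not called, with log2 0.11 ± 0.27, adjusted p = 0.797 and log2 0.14 ± 0.19, adjusted p = 0.604. Arntl was at 9.96, 4.38 and 7.29 CPM at 6 months and 9.25, 6.16 and 7.80 at 12 months, and Dbp at 98.8, 149 and 97.5 CPM at 6 months and 128, 147 and 107 at 12 months, so neither separated the ages. The time of day of tissue collection is not given in the labels. The clock count was 1, 0 and 0 without 6-month mouse 1, 2 and 3, and 1, 3 and 5 without 12-month mouse 1, 2 and 3. Per3 had an adjusted p = 0.055, 0.063 and 0.101 without 6-month mouse 1, 2 and 3. Per2 had an adjusted p = 0.050, 0.127 and 0.137 without 6-month mouse 1, 2 and 3 and 0.128 and 0.184 without 12-month mouse 1 and 3. Nr1d2 had an adjusted p = 0.058, 0.059 and 0.095 without 6-month mouse 1, 2 and 3 and 0.064 and 0.062 without 12-month mouse 1 and 2.

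**Figure D4:**
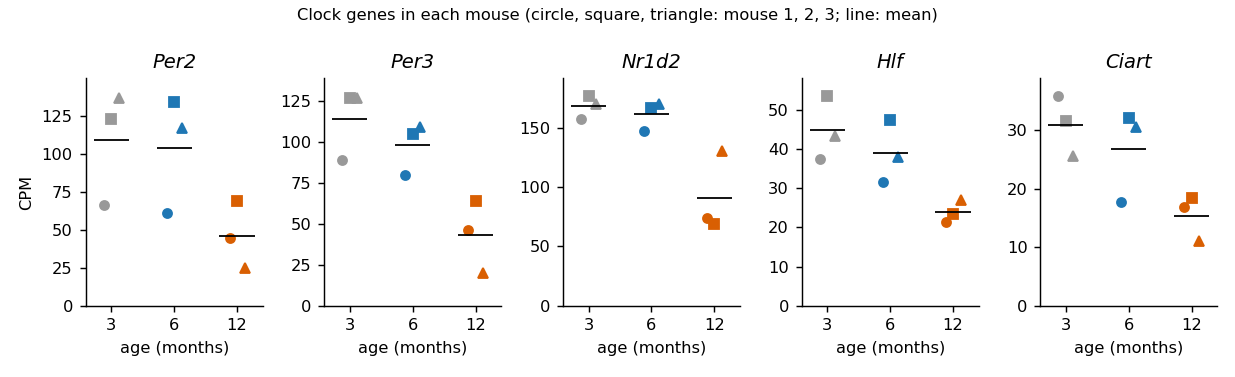
Level of Per2, Per3, Nr1d2, Hlf and Ciart in CPM in each mouse at 3, 6 and 12 months. Circles, squares and triangles are mouse 1, 2 and 3, and lines are means. The means are lower at 12 than at 6 months in all 5 panels, and 6-month mouse 1 lies at or near the level of 12-month mice for Per2 and Ciart.

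Ciart, a further repressor of the loop, was at 17.7, 32.1 and 30.5 CPM at 6 months and 16.8, 18.4 and 11 at 12 months (log2 -0.80 ± 0.24, adjusted p = 0.038, corrected -0.93 ± 0.20, adjusted p = 0.012). Ciart had an adjusted p = 0.12 and 0.151 without 6-month mouse 2 and 3 and 0.061 and 0.056 without 12-month mouse 1 and 3. CLOCK and BMAL1, the product of Arntl, bind the E-box CACGTG. That motif, which reads the same on both strands, was in 6.02% of the 32851 promoters, or in 6.86% of the 27025 genes with a promoter. It was in 5 of 17 clock genes with a promoter (Per1, Cry1, Tef, Ciart and Bhlhe41). Of the 4 called clock genes with a promoter only Ciart held it, at 3 places. Its promoter (chr3:95882229-95882478, minus strand) is shown on the strand of the gene, 5′ to 3′, with the 3 E-boxes in capitals, starting 116, 58 and 44 bases before the gene.
Ciart: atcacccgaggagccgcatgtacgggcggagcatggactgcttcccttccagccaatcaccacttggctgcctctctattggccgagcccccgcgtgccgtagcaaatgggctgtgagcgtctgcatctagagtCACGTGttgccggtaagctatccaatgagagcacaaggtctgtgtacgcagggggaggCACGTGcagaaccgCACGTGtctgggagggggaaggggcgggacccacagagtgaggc

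The transcript C920021L13Rik (chr3:95871522-95889093), named after its values were seen, spans the Ciart locus (chr3:95878503-95882251). It fell under all 16 alternative settings, at 7.78, 7.95 and 11.2 CPM at 6 months and 2.18, 1.57 and 1.77 at 12 months (log2 -2.27 ± 0.28, adjusted p = 0.0032). C920021L13Rik had -2.29 ± 0.29, adjusted p = 0.0027 with the correction. The sources used here do not say how reads on overlapping genes were assigned, so the 2 cannot be told apart with certainty.

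Immediate early genes, which respond to stimuli and handling within minutes, fell in 6 of 25 cases and rose in 1 (median -0.31). With the correction 11 fell and none rose (median -0.40). Nr4a2, an orphan nuclear receptor, was at 10.7, 10.3 and 12.9 CPM at 6 months and 4.30, 4.78 and 3.93 at 12 months (log2 -1.38 ± 0.18, adjusted p = 0.0045). Nr4a2 had -1.20 ± 0.14, adjusted p = 0.0022 with the correction. Klf4, a zinc finger factor of endothelium and epithelium, was at 232, 255 and 292 CPM at 6 months and 142, 144 and 102 at 12 months (log2 -1.01 ± 0.17, adjusted p = 0.0072). Klf4 had -1.29 ± 0.13, adjusted p = 0.0019 with the correction. Fos, the prototype of the class, was at 114, 154 and 70.5 CPM at 6 months and 76.8, 119 and 69.9 at 12 months (log2 -0.35 ± 0.32, adjusted p = 0.448) and overlapped between the ages.

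The lower count was 3, 4 and 1 without 6-month mouse 1, 2 and 3, and 3, 5 and 5 without 12-month mouse 1, 2 and 3. Without 12-month mouse 3, 4 immediate early genes were also called higher. Nr4a2 was called without any 1 mouse, and Klf4 had adjusted p = 0.057 without 6-month mouse 3. Among 18 glucocorticoid response genes 3 fell and none rose, with 0 higher and 0 to 3 lower when 1 mouse was left out. Klf9 was at 182, 219 and 245 CPM at 6 months and 96.9, 98.7 and 123 at 12 months (log2 -1.02 ± 0.20, adjusted p = 0.011, corrected -0.85 ± 0.19, adjusted p = 0.014), and Zbtb16 at 84.9, 155 and 200 CPM at 6 months and 53, 53.6 and 18.5 at 12 months (log2 -1.81 ± 0.52, adjusted p = 0.036). Zbtb16 had -1.82 ± 0.55, adjusted p = 0.060 with the correction. Fkbp5 and Tsc22d3, standard markers of the hormone, were not called (-0.79 and -0.33, adjusted p = 0.092 and 0.349). Klf9 had an adjusted p = 0.069 without 6-month mouse 3. Zbtb16 had an adjusted p = 0.051, 0.059 and 0.109 without 6-month mouse 1, 2 and 3 and 0.088, 0.135 and 0.137 without 12-month mouse 1, 2 and 3.

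The cell cycle inhibitors used as senescence markers were not called. Cdkn1a, which encodes p21, was at 71.1, 96.0 and 118 CPM at 6 months and 111, 106 and 99.0 at 12 months (log2 0.15 ± 0.18, adjusted p = 0.568), and Cdkn2a, which encodes p16, at 0.747, 1.44 and 0.905 CPM at 6 months and 1.58, 1.26 and 0.786 at 12 months (log2 0.25 ± 0.38, adjusted p = 0.659). Both overlapped between the ages. Of 22 senescence and p53 target genes 2 rose and 1 fell, with 0 to 5 higher and 0 to 4 lower when 1 mouse was left out. Both shares lie below those of all genes called higher (10.9%) and lower (9.06%). Phlda3 and Bax, which rose, were not called with the correction (0.28 and 0.10, adjusted p = 0.137 and 0.485). The gene that fell was Mdm2, the ubiquitin ligase of p53 (log2 -0.83 ± 0.15, adjusted p = 0.0094). Mdm2 had -0.66 ± 0.11, adjusted p = 0.0052 with the correction. As fitted, Mdm2 had an adjusted p = 0.063 without 6-month mouse 3. Sirt1, a deacetylase studied in ageing, was at 31.3, 29.3 and 36.4 CPM at 6 months and 17.0, 17.8 and 19.7 at 12 months (log2 -0.83 ± 0.15, adjusted p = 0.0089), was not called with the correction (-0.35 ± 0.14, adjusted p = 0.110), and had adjusted p = 0.063 without 6-month mouse 3.

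Among the other genes with large changes, Krt15, a keratin of airway basal cells, was at 7.47, 8.12 and 1.26 CPM at 6 months and 10.7, 34.1 and 18.2 at 12 months (log2 1.91 ± 0.54, adjusted p = 0.032), with a wide spread. Krt15 had an adjusted p = 0.065 and 0.080 without 6-month mouse 1 and 3 and 0.156 and 0.094 without 12-month mouse 2 and 3. It was not called with the correction (1.62 ± 0.58, adjusted p = 0.090), with no filter (adjusted p = 0.146) or with mouse number as a block (adjusted p = 0.063). Cidea, a lipid droplet protein, was at 3.05, 2.30 and 2.21 CPM at 6 months and 4.35, 10 and 8.06 at 12 months (log2 1.56 ± 0.30, adjusted p = 0.010). Cidea had 1.22 ± 0.28, adjusted p = 0.016 with the correction. As fitted, Cidea had an adjusted p = 0.067 without 6-month mouse 3. Dkkl1, a secreted Dickkopf-like protein, was at 2.68, 2.25 and 2.71 CPM at 6 months and 8.01, 7.86 and 5.37 at 12 months (log2 1.48 ± 0.26, adjusted p = 0.0087). Dkkl1 had 1.10 ± 0.21, adjusted p = 0.0082 with the correction. As fitted, Dkkl1 had an adjusted p = 0.054 without 6-month mouse 3. Grip2, a scaffold of glutamate receptors, was at 2.49, 2.48 and 1.46 CPM at 6 months and 7.87, 5.10 and 5.63 at 12 months (log2 1.54 ± 0.27, adjusted p = 0.0089). Grip2 had 1.47 ± 0.24, adjusted p = 0.0050 with the correction. As fitted, Grip2 had an adjusted p = 0.058 without 6-month mouse 3. The ages did not overlap for any of these, which the naming rule required.

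On the lower side, Slfn5, a Schlafen family gene, was at 73.7, 70.6 and 85.9 CPM at 6 months and 27.4, 19.6 and 23.8 at 12 months (log2 -1.70 ± 0.23, adjusted p = 0.0047, corrected -1.35 ± 0.19, adjusted p = 0.0031), and was called without any 1 mouse. Dnm3os, a noncoding RNA that carries microRNAs within the Dnm3 gene, was at 3.42, 2.94 and 4.62 CPM at 6 months and 0.940, 0.881 and 1.11 at 12 months (log2 -1.90 ± 0.30, adjusted p = 0.0057). Dnm3os had -1.38 ± 0.27, adjusted p = 0.0095 with the correction. Ncam1, a neural adhesion molecule, was at 1.31, 2.19 and 2.06 CPM at 6 months and 0.544, 0.755 and 0.131 at 12 months (log2 -1.93 ± 0.44, adjusted p = 0.015). Ncam1 had -1.82 ± 0.39, adjusted p = 0.013 with the correction. As fitted, Ncam1 had an adjusted p = 0.080 without 6-month mouse 3. Sele, the endothelial selectin that slows leukocytes, was at 1.31, 2.19 and 1.31 CPM at 6 months and 0.495, 0.440 and 0.459 at 12 months (log2 -1.76 ± 0.42, adjusted p = 0.017). Sele had -1.64 ± 0.42, adjusted p = 0.025 with the correction. As fitted, Sele had an adjusted p = 0.050, 0.057 and 0.069 without 6-month mouse 1, 2 and 3. Xylt1, which starts proteoglycan chains, was at 2.43, 1.55 and 1.36 CPM at 6 months and 0.346, 0.503 and 0.459 at 12 months (log2 -2.02 ± 0.51, adjusted p = 0.020). Xylt1 had -2.02 ± 0.52, adjusted p = 0.025 with the correction. As fitted, Xylt1 had an adjusted p = 0.076 and 0.073 without 6-month mouse 1 and 3 and 0.056 without 12-month mouse 1.

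Genes of tissues next to the lung were present in all libraries. Heart muscle genes, which the sleeves of pulmonary veins also express, summed to 1130, 873 and 472 CPM at 6 months and 1080, 1110 and 1060 CPM at 12 months, with 6-month mouse 3 the lowest. Of 23 such genes 2 rose (Myl4 and Actc1) and 1 fell (Myh7), while 19 were above 0, 9 were higher with no overlap, and the median was 0.75 (0.43 with the correction). Over all tested genes 21.8% were higher with no overlap and 10.9% were called higher, so the share of 2 of 23 called lies below that of all genes. DESeq2 and voom each called 6 higher and a fit blocked on mouse number called 9, and leaving out 1 mouse at a time gave 0 to 2 higher and 0 to 1 lower. Myh6, atrial myosin, was at 385, 278 and 137 CPM at 6 months and 245, 271 and 119 at 12 months (log2 -0.33 ± 0.34, adjusted p = 0.494). Adipose genes summed to 4270, 3290 and 3480 and 2850, 3470 and 3690 CPM, with 2 of 21 higher and 1 lower, and 0 to 3 higher and 0 to 2 lower with 1 mouse left out. Neither adipose share as fitted exceeded that of all genes called (10.9% higher, 9.06% lower). Adipoq, adiponectin, was at 42.3, 12.4 and 6.33 CPM at 6 months and 14.8, 24.4 and 35.8 at 12 months (log2 0.30 ± 0.56, adjusted p = 0.718). Stratified squamous epithelium genes summed to 44.9, 34.6 and 30.5 and 40.1, 50.9 and 50 CPM, with 2 of 7 higher, and 0 to 2 higher and 0 lower with 1 mouse left out.

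Red cell genes summed to 2590, 2800 and 3530 CPM at 6 months and 4770, 4600 and 4090 CPM at 12 months, with no overlap. Of 12, 5 rose and none fell, and 3 with the correction. The globin genes Hba-a1 and Hbb-bs rose as fitted but were not called with the correction (0.26 and 0.27, adjusted p = 0.275 and 0.267). Alas2, which starts haem synthesis in red cell precursors, was at 76.0, 100 and 108 CPM at 6 months and 158, 143 and 138 at 12 months (log2 0.63 ± 0.17, adjusted p = 0.024). Alas2 had 0.53 ± 0.15, adjusted p = 0.032 with the correction. As fitted, Alas2 had an adjusted p = 0.109, 0.061 and 0.080 without 6-month mouse 1, 2 and 3 and 0.070 without 12-month mouse 1. The count was 0, 0 and 0 without 6-month mouse 1, 2 and 3, and 0, 1 and 6 without 12-month mouse 1, 2 and 3. Without 12-month mouse 3, 3 red cell genes were also called lower. The part of blood or adjacent tissue in the other results was not tested.

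**Figure D5:**
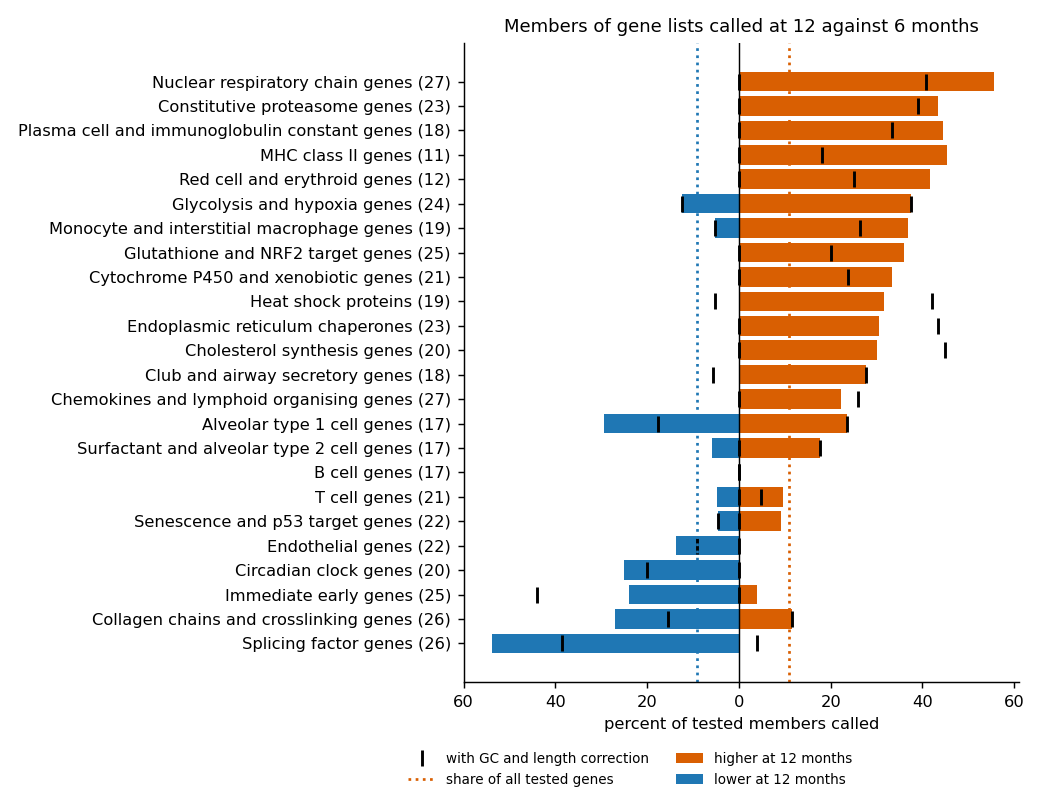
Percent of tested members of 24 gene lists called higher (orange, right) or lower (blue, left) at 12 against 6 months, with the number of tested members in brackets. Black ticks give the share with the correction for GC content and length, and dotted lines the share of all tested genes (10.9% higher, 9.06% lower). Respiratory chain genes reach furthest to the right with 15 of 27, and splicing factor genes furthest to the left with 14 of 26.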

How the data were processed

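Lung RNA of 3 mice of 6 months and 3 of 12 months was compared, with the 3 libraries of 3 months in the same fit. Those of 24 months were left out, because earlier results of these data showed that they stand apart. Reads per gene were deposited as raw counts for 35275 genes, per the file headers. The submitters' processing notes name TopHat, STAR 2.5, HTSeq 0.6.1 and mm10 without roles. The sources used here do not state the strand setting or how shared reads were treated. FPKM for each library and age, signal values (scaled means), log2 fold changes and p-values against 3 months were also deposited by the authors and were not used. Another 2 columns of 3-month signal were matched to no library.

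Genes were filtered with filterByExpr, scaled with TMM and tested in edgeR 4.0.16 with a robust quasi-likelihood fit (limma 3.58.1, R 4.3.3). The contrast was 12 minus 6 months, with Benjamini-Hochberg adjustment over the 15908 genes. The SE was the size of the fold change divided by the root of F. Each mouse was 1 library. The p-values set the difference between ages against the spread between mice of the same age over the 9 libraries in the fit. The scripts were tested on simulated data. CPM used TMM library sizes of the 9 libraries. The correction was an offset from a smooth on GC content and log length in each library (mgcv 1.9.3). GC content came from GENCODE M21 for 99.4% of tested genes, and length from the deposited table.

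The 62 gene lists, the comparison and its tests were chosen with earlier results of these data known. The genes named were the 15 largest folds each way among called genes with a mean CPM of at least 1, no overlap between ages and a symbol that was no V, D or J segment, numbered model, Riken clone or pseudogene. Up to 4 members of each list with the smallest p and some fixed genes were added. Other named genes were chosen after their values were seen. The 16 alternatives were RLE factors, DESeq2 1.42.0, voom in limma, testing with no filter, testing genes with mean CPM of 1 or more, only the 6 libraries of both ages, all 12 libraries, mouse number as a block, the GC and length correction without and with that block, and leaving out each of the 6 mice. After the data were seen, the correction without 12-month mouse 3 was added.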

Additional observations from a re-analysis of the deposited data

How the results depend on the processing

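As fitted, 1734 genes rose and 1442 fell. Leaving out 1 mouse at a time gave 12 to 3330 higher and 50 to 3449 lower genes, the fewest without 6-month mouse 3 and the most without 12-month mouse 3. Of the 310 genes named, 237 were called, and between 17 (without 12-month mouse 3) and 183 (without 6-month mouse 3) of those calls were lost. In each of these 6 fits 1 to 4 named genes changed sign, none of them called in either fit. No named gene changed sign with RLE factors, DESeq2, voom, either filter, either set of libraries or the mouse number as a block. With all 12 libraries 77 genes rose and 248 fell, and 156 named calls were lost.

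The GC and length correction gave 1492 higher and 1036 lower genes. It kept 44.2% of the calls in the same direction, and 1 further call was made with the opposite sign. It ended 77 named calls. Ltbp1, which fell by 0.41 as fitted, had a log2 difference of 0.03 (edgeR adjusted p = 0.883). Scgb1a1, at 0.08 as fitted, had -0.51 (edgeR adjusted p = 0.028). Without 12-month mouse 3 the correction gave 1775 higher and 1245 lower genes. The split of calls moved from 54.6% higher as fitted to 59.0% with the correction and 49.3% with RLE factors.

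Deviations of same-numbered mice correlated at -0.16, 0.11 and -0.06, so the numbers were not taken to pair the mice, and not every mouse correlated best with its own number. The replicate block gave 1586 higher and 1672 lower genes and kept 90.9% of the calls. The replicate block with the GC and length correction gave 1086 higher and 858 lower genes, with Ltbp1 at 0.03 (edgeR adjusted p = 0.893) and Scgb1a1 at -0.50 (edgeR adjusted p = 0.043). For each change in this section the cause was not tested.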
